A study of Mus musculus with 11 samples.

Results

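The genes described here are 4 subunits of the ATP-sensitive potassium (KATP) channel (Kcnj8, Kcnj11, Abcc8 and Abcc9) and 6 genes commonly used as markers of mural cells (Pdgfrb, Rgs5, Anpep, Notch3, Vtn and Acta2). They were chosen by symbol, with their measured values in the mutator and control mice already known, and they make up 10 of the 36666 genes in the count table. All 10 passed the filter on low counts, with between 105 and 12534 counts per gene and mouse. Because the choice rested on the comparison of mutator with control mice, the gene levels in that comparison are given as a description and no test is read from them. Exon usage within the genes and the variation among the mutator mice were not used in the choice, and these were tested.

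RNA-Seq was performed on the cerebrum, with the cerebellum removed, of 11 male C57/Bl6 mice aged 1 year. The 7 Polg mutator mice were homozygous for the D257A knock-in allele, which impairs the proofreading of the mitochondrial DNA polymerase in every cell that carries it. The 4 controls were littermates, of which 3 were WT/WT and 1, control mouse 237, was WT/D257A. The study asked how far mitochondrial proteins change in the mutator brain, and whether changes in mRNA go along with them. The comparison here uses only the RNA, and asks how the channel and mural cell genes stand in the mutator cerebrum.

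KATP channels couple the metabolic state of a cell to its membrane potential, since they close when ATP is plentiful and open when ADP accumulates. Each channel has a pore built of Kir6 subunits, Kir6.1 from Kcnj8 or Kir6.2 from Kcnj11, surrounded by sulphonylurea receptor subunits, SUR1 from Abcc8 or SUR2 from Abcc9. In the brain, Kir6.2 and SUR1 are best known from neurons, whereas Kir6.1 and SUR2 are best known from pericytes and vascular smooth muscle cells. Both are mural cells, which wrap the endothelium of capillaries and of arterioles and venules.

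The channel genes lie in pairs in the mouse genome. In the mm9 build, Kcnj8 (chr6:142513459-142519876) and Abcc9 (chr6:142536382-142650794) were both on the minus strand, 16505 bases apart. Kcnj11 (chr7:53352533-53355607) and Abcc8 (chr7:53359893-53435403) were also both on the minus strand, with 4285 bases between them. None of these genes shared exonic bases with another annotated gene. Of the mural markers, only Notch3 did, with 488 exonic bases in common with the antisense RNA Gm17276. Because strand-specific counting is not stated, reads there cannot be assigned to either gene. Notch3 exon bins 8 and 9, of 155 and 333 bases, held 0 counts in all 10 mice with exon files. The neighbouring bins 7 and 10 held at least 12 and 25 counts in each of these mice. Whether the 0 counts arose from the shared bases was not tested, so they are not read as absence of these exons. The Notch3 level per kilobase given below still includes bins 8 and 9 in the length.

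The coding sequence of Abcc9 ends in either of 2 exons, called last exons here, which give the receptor its SUR2A or SUR2B tail. They are shown because the exon bins of the deposited files tell them apart. Each encodes 45 codons before its stop codon, and 70 of their 138 coding bases (50.7%) were identical at the same position. The sequences below are from the mm9 genome, read on the minus strand. In the first pair, the first 30 bases of each exon, capitals mark the bases that differ, and 18 of the 30 were identical.

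SUR2A-type exon, start, chr6:142542633-142542662: caCcgTgtCTCTTcTattGtgGAtgcagGc
SUR2B-type exon, start, chr6:142538994-142539023: caTcgGgtTCACAcCattCtgACtgcagAc

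In the second pair, the last 30 coding bases of each exon, capitals mark the stop codon only, and bases that differ are not marked.

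SUR2A-type exon, end, chr6:142542525-142542554: ttttctactttggtgatgaccaacaagTAG
SUR2B-type exon, end, chr6:142538886-142538915: tttgcctcgtttgtccgtgcagacatgTGA

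The libraries held between 28249345 gene counts (control mouse 246) and 121182250 (control mouse 205), and mutators held between 37821243 and 91219204. Levels below are CPM, gene counts relative to library size, scaled by TMM factors. With edgeR's quasi-likelihood test, 223 of 17983 genes tested (1.24%) had an adjusted p-value under 0.05, 79 of them (0.439%) higher and 144 (0.801%) lower in mutators, and the median log2 fold change of all tested genes was 0.001. The number called depended on single mice, with 50 without the WT/D257A mouse and 412 without control mouse 205. Before adjustment, 2834 of the 17983 genes had a p-value under 0.05 in this test, the background for such counts in the lists below. For 472 genes (2.62%) the range of the 4 controls lay wholly outside that of the 7 mutators. Of the 10 genes described here, 1 (Abcc9) was called and 1 (again Abcc9) did not overlap. Since the genes were chosen on this comparison, nothing is read from those counts.

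Abcc9, which encodes the receptor subunit SUR2, was the member with the clearest separation of the groups. Its level was 11.8, 10.5, 12.02 and 10.1 CPM in control mice 205, 237, 239 and 246. In the mutators it ran from 14.9 CPM (mouse 240) through a median of 17.8 to 19.8 CPM (mouse 249). Every mutator thus lay above every control, and the WT/D257A mouse lay among the WT/WT mice. The means were 11.1 ± 0.94 (SD, n = 4) and 17.5 ± 1.83 CPM (SD, n = 7), a log2 fold change of 0.64 with a standard error of 0.083, or 1.56-fold. Over 15 alternative fits, including each mouse left out in turn, its log2 fold change stayed between 0.61 and 0.68.

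Kcnj8, which encodes the pore subunit Kir6.1 that pairs with SUR2, was also higher on average in mutators, by less. The controls had 3.78, 4.14, 4.73 and 4.22 CPM in mice 205, 237, 239 and 246, and the mutators ran from 4.63 through a median of 5.02 to 5.50 CPM. Here 6 of the 7 mutators lay above all controls, and mutator mouse 240 lay below control mouse 239. The log2 fold change was 0.27 with a standard error of 0.097, and it ranged from 0.21 to 0.34 over the alternatives.

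The neuronal pair was lower on average. Kcnj11, encoding Kir6.2, had 38.5, 50.3, 43.2 and 49.5 CPM in control mice 205, 237, 239 and 246, and between 35.9 and 43.0 CPM in mutators with a median of 40.7. The groups overlapped, since control mouse 205 lay below 5 of the mutators. The log2 fold change was -0.18 (SE 0.070). Abcc8, encoding SUR1, had 35.0, 42.7, 37.7 and 38.6 CPM in the same controls and between 30.4 and 38.4 CPM in mutators, with a log2 fold change of -0.16 (SE 0.063). For both genes the WT/D257A mouse had the highest level of all 11, and without it the log2 fold changes were -0.12 for Kcnj11 and -0.11 for Abcc8.

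**Figure D1:**
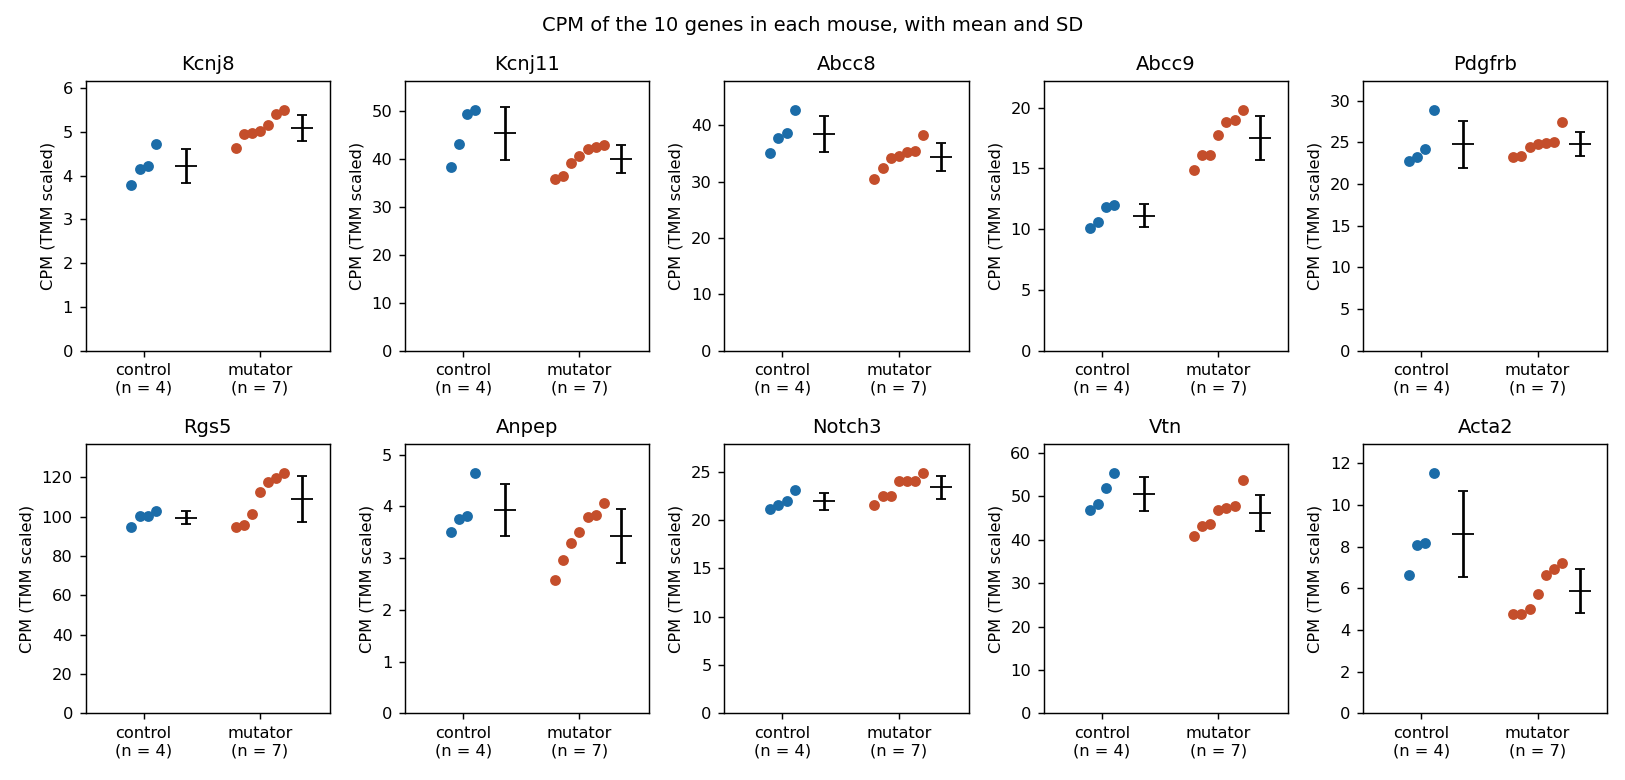
CPM (TMM scaled, y axes from 0) of each gene in every mouse, with 4 controls in blue and 7 mutators in orange, and the group mean and SD in black. The Abcc9 points of the mutators, from 14.9 to 19.8, all sit above the control points, which end at 12.02, while the other 9 panels show overlapping groups.

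The mural markers differed in direction, and Acta2 had a larger difference than the other 5. Pdgfrb, the receptor through which endothelial PDGF-B recruits pericytes, had 22.8, 28.9, 24.2 and 23.3 CPM in control mice 205, 237, 239 and 246 and between 23.2 and 27.5 CPM in mutators. Both means were 24.8 CPM, and the log2 fold change was 0.003 (SE 0.065), with a sign that turned between alternatives (-0.04 to 0.08). Rgs5, a regulator of G protein signalling abundant in pericytes, had 99.4 ± 3.29 CPM (SD, n = 4) in controls and 109 ± 11.7 (SD, n = 7) in mutators, where it ran from 94.8 to 122 CPM. Its mutator values spread more than its control values, and 4 of 7 lay above all controls. Notch3, a receptor that mural cells need to mature on arteries, had 21.9 ± 0.87 and 23.4 ± 1.19 CPM, a log2 fold change of 0.09 (SE 0.055).

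Vtn, the secreted adhesion protein vitronectin, had 50.6 ± 3.87 CPM in controls and 46.2 ± 4.16 in mutators (log2 fold change -0.13, SE 0.066), and 4 of 7 mutators lay below all controls. Anpep, the membrane aminopeptidase CD13, had 3.93 ± 0.50 and 3.43 ± 0.53 CPM (log2 fold change -0.19, SE 0.13). Without the WT/D257A mouse, the log2 fold changes were -0.10 for Anpep and -0.08 for Vtn. Acta2, the smooth muscle actin of arterial mural cells, had the largest difference among these markers. It had 6.66, 8.20, 8.06 and 11.6 CPM in control mice 205, 237, 239 and 246, and from 4.75 through a median of 5.74 to 7.24 CPM in mutators. Here 5 of 7 mutators lay below all controls, and control mouse 246 was the highest of all mice. The log2 fold change was -0.53 (SE 0.145). Without control mouse 246 its log2 fold change was -0.37.

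The sum of the 6 mural markers was between 199 and 220 CPM in controls and between 197 and 227 CPM in mutators, so the groups overlapped. In RNA from whole cerebrum, fewer cells of a type and less RNA per cell cannot be told apart. Against Pdgfrb in the same mouse, Abcc9 stood at 0.454 ± 0.069 (SD, n = 4) in controls and 0.710 ± 0.102 (SD, n = 7) in mutators, and the highest control (0.518) lay below the lowest mutator (0.586). The same ratio for Kcnj8 was 0.171 ± 0.022 and 0.206 ± 0.019, and the groups overlapped.

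To compare levels between genes, CPM were divided by exonic length. In controls the order in CPM per kilobase was Vtn (24.9 ± 1.91, SD, n = 4), Rgs5 (21.9 ± 0.72), Kcnj11 (14.8 ± 1.82), Abcc8 (7.78 ± 0.65), Acta2 (4.84 ± 1.17), Pdgfrb (4.52 ± 0.51), Notch3 (2.73 ± 0.11), Kcnj8 (1.93 ± 0.18), Abcc9 (1.48 ± 0.12) and Anpep (1.01 ± 0.13). Acta2 and Pdgfrb overlapped between mice, and the other neighbours in this order did not. By this length, Abcc9 and Kcnj8 stood at 2.32 ± 0.24 and 2.33 ± 0.13 CPM per kilobase in mutators (SD, n = 7). The length counts all annotated exonic bases, which were read unevenly. In Abcc9, the untranslated bin 1, with 2504 of 7538 exonic bases, had 1.44 CPM per kilobase in mutators, and bin 2 had 4.23. In Kcnj8, bin 1, with 1567 of 2188 bases, had 1.37, and bin 2 had 2.39. Levels and ratios between genes therefore depend on the length used, and equal values are not read as equal transcript numbers.

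Per length, the neuronal subunits were more abundant than the vascular ones in every mouse. Abcc9 made up 16.0 ± 2.02% (SD, n = 4) of the summed receptor level in controls and 25.1 ± 2.07% (SD, n = 7) in mutators, with no overlap between 13.9–18.1% and 21.6–27.6%. Kcnj8 made up 11.6 ± 1.36% of the summed pore level in controls and 15.2 ± 1.42% in mutators, and again the ranges, 10.4–13.3% and 13.8–17.5%, did not overlap. The ratio of Abcc9 to Kcnj8 was 0.770 ± 0.093 in controls and 0.998 ± 0.089 in mutators, with overlap. The ratio of Abcc8 to Kcnj11 was 0.529 ± 0.034 and 0.537 ± 0.069. These ratios rest on the same values as the choice of genes, depend on the exonic lengths used, and were not tested.

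**Figure D2:**
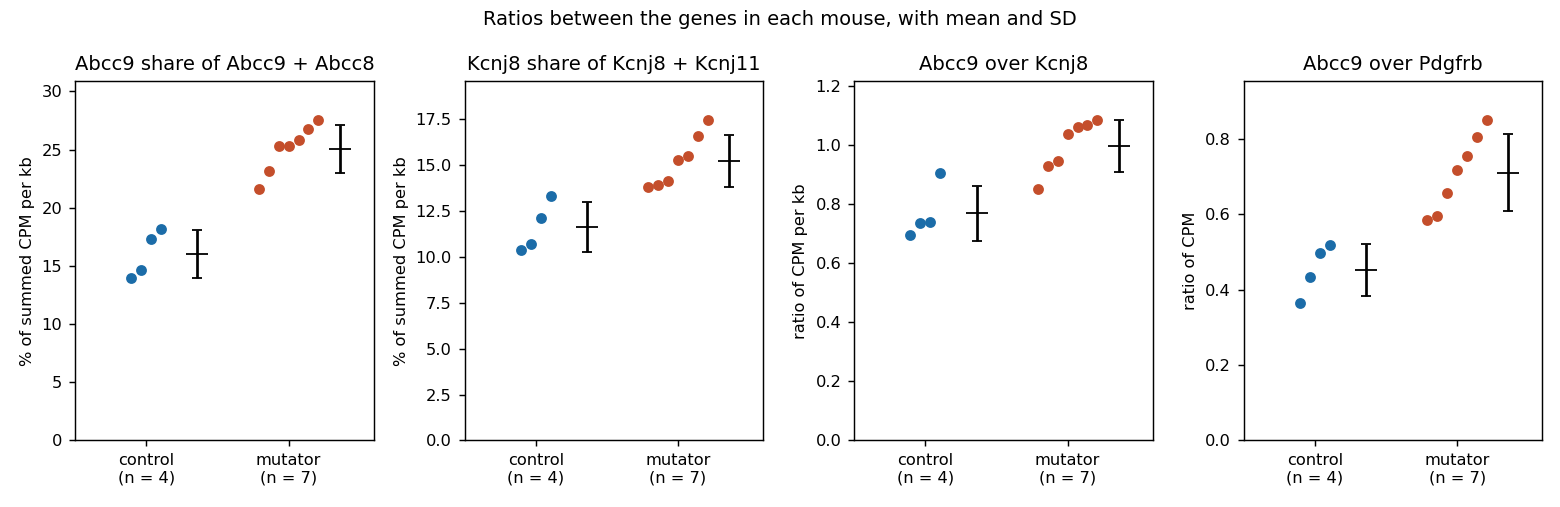
Ratios between genes in each mouse (y axes from 0), with 4 controls in blue, 7 mutators in orange, and mean and SD in black. The share of Abcc9 in the receptor level, 16.0% in controls and 25.1% in mutators, the share of Kcnj8 in the pore level and the ratio of Abcc9 to Pdgfrb separate the groups, and the ratio of Abcc9 to Kcnj8 overlaps.

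Exon usage asks whether single exon bins changed against the rest of their gene, which the choice of genes did not use. It was tested with edgeR's diffSpliceDGE in the 7 mutators and 3 WT/WT mice with exon files. Of 206930 bins tested, 49 (0.0237%) had an adjusted p-value under 0.05, and 3923 had an unadjusted p-value under 0.05. None of the bins of the 10 genes passed, and none had an unadjusted p-value under 0.05. Limma's diffSplice called none of them either. The lowest adjusted p-value of edgeR's diffSpliceDGE in these genes was 0.999995. Kcnj11 has a single bin and could not be tested.

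In Abcc9, 43 of 48 bins were tested, and the mean CPM was higher in mutators in all 43. The median log2 fold change of these bins was 0.60, from 0.09 in bin 16 to 1.36 in bin 38, which is 9 bases long and had between 1 and 19 counts per mouse. In 7 of the bins the groups did not overlap. The share of all bins without overlap was not counted, so nothing is read from this number. Bin levels are parts of the gene levels on which the genes were chosen, so their directions are a description only. The size of the difference varied along Abcc9, with 0.17 in bin 15 and, near the 5′ end, 0.24 in bin 45 and 0.14 in bin 47. No difference in the use of single bins was detectable at this depth. In Kcnj8, all 3 bins had higher means in mutators. In Acta2, all 9 bins had lower means, with a median log2 fold change of -0.53. Among 41 bins tested in Abcc8, 9 had higher means in mutators.

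**Figure D3:**
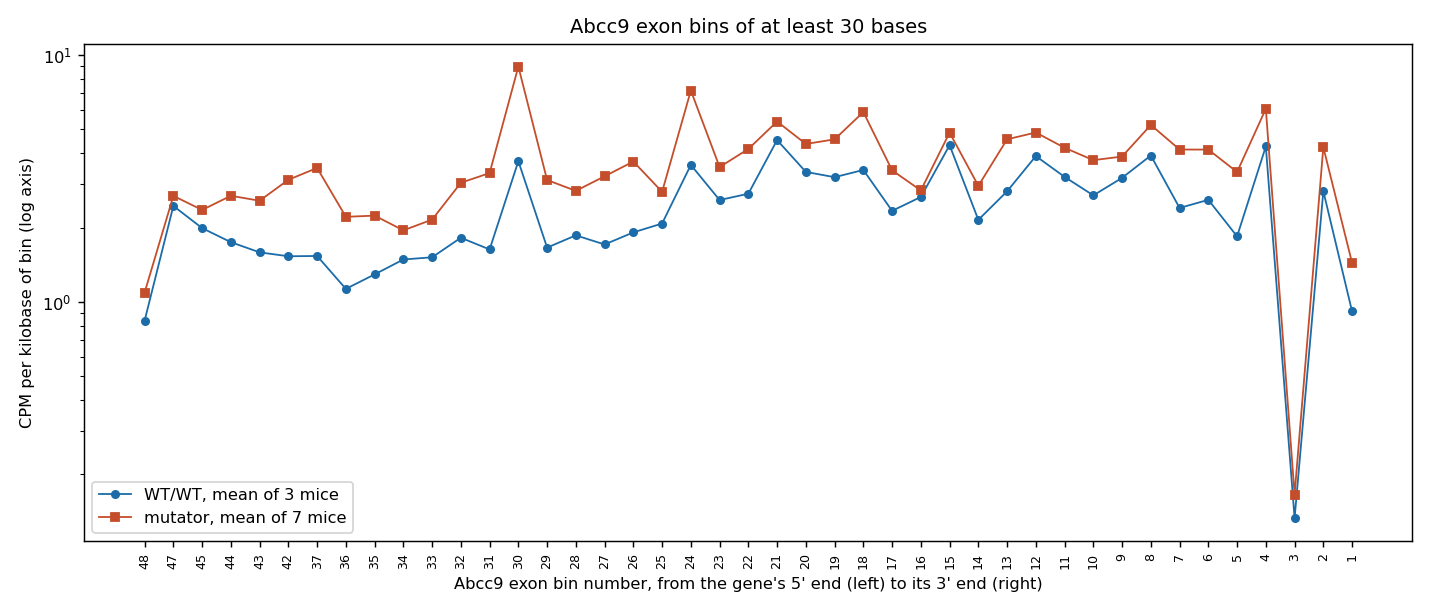
Mean CPM per kilobase (log axis) of the Abcc9 exon bins of at least 30 bases, from the 5′ end on the left to the 3′ end on the right, in 3 WT/WT mice (blue) and 7 mutators (orange). The orange line lies above the blue one at every bin, and both drop to 0.133 and 0.166 at bin 3, the SUR2A-type last exon.

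The alternative last exons of Abcc9 were read unequally. Bin 3, the SUR2A-type exon shown above, had between 0 and 3 counts per mouse, whereas bins 1 and 2, the SUR2B-type exon and its untranslated end, had between 70 and 402. In the annotation, bin 2 is part of all 5 transcripts of Abcc9 and bin 3 of 3 of them. Transcripts with the SUR2A-type exon thus also hold bin 2, so bins 1 and 2 are not exclusive to SUR2B. The shares below are therefore shares of counts and not of transcript forms. Pooled over 10 mice, bin 3 held 15 of 2076 last exon counts, or 0.723% (95% Clopper-Pearson interval 0.405–1.19%, for counting error only). The share was 0.796 ± 0.722% (SD, n = 3) in WT/WT mice and 0.697 ± 0.425% (SD, n = 7) in mutators. This difference of -0.10 percentage points was within the SD of either group (exact permutation test, 2-sided, p = 0.792, with 0.00833 the smallest p possible). Its sign turned without mutator mouse 217 (0.02) and without control mouse 246 (0.21), and it was -0.50 without control mouse 239. Per base, the share of bin 3 was 10.2% in WT/WT mice and 9.28% in mutators. Against the counts of bin 2 alone, the coding bin of the SUR2B-type exon, it was 5.20% and 4.66%.

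Within the mutators, 8 pairs of these genes were correlated over the 7 mice. None passed with Benjamini-Hochberg adjustment over the 8 pairs, and 0 had an unadjusted p-value under 0.05. Abcc9 and Kcnj8 had r = 0.50 (exact permutation p = 0.255, adjusted p = 0.408) and rho = 0.46 (exact permutation p = 0.302, adjusted p = 0.605). Without mutator mice 217 and 240, r was 0.79, and without mouse 217 alone it was 0.91 (exact permutation, adjusted p = 0.0333), so this relation depends on single mice. Abcc9 and Rgs5 had r = 0.63 (exact permutation p = 0.128, adjusted p = 0.39) and rho = 0.57 (exact permutation p = 0.200, adjusted p = 0.605). Abcc9 and Pdgfrb had r = -0.56 (exact permutation p = 0.187, adjusted p = 0.39) and rho = -0.39 (exact permutation p = 0.396, adjusted p = 0.633).

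The genes whose deviations from the group means were most like those of each subunit over the 11 mice were found as a description, with no test. For Abcc9 these were A730017L22Rik (r = 0.94), 6430628N08Rik (r = 0.89) and Gpr63 (r = 0.89), and for Kcnj8 they were AA386476 (r = 0.90), Sorcs3 (r = 0.87) and Snord64 (r = 0.87). For Abcc8 they were Slc8a2 (r = 0.97), Rapgefl1 (r = 0.96) and Pgbd5 (r = 0.96), and for Kcnj11 they were Stra13 (r = 0.98), Coq9 (r = 0.95) and Psmd4 (r = 0.95). The 11 values share their libraries and scaling, and neither gene of a channel pair was among the 3 most like the other. On the same deviations, r was 0.34 between Abcc9 and Kcnj8 and 0.21 between Abcc8 and Kcnj11.

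Other genes of the same families and cells place these values. Of 15 other pericyte genes, 0 were called higher and 1 lower, with a median log2 fold change of -0.08. The log2 fold changes of 4 were positive and those of 11 negative. The gene called was Mcam, the adhesion molecule CD146. It had 26.4, 30.003, 26.6 and 24.5 CPM in control mice 205, 237, 239 and 246 and between 16.8 and 24.3 in mutators, so the groups did not overlap. Its log2 fold change was -0.39 (SE 0.080, edgeR adjusted p = 0.0211), and the call was lost, leaving 0 of 15, without control mouse 237, control mouse 239 or mutator mouse 240. The summed level of the list was between 86.7 and 96.3 CPM in controls and between 75.0 and 84.7 CPM in mutators, without overlap. Mcam, at 26.9 CPM on average in controls and 20.5 CPM in mutators, and Cspg4, at 21.0 and 18.6 CPM, made up much of this gap. Whether the RNA of the listed genes came from pericytes alone was not tested. Pla1a, a phospholipase, lay in the other direction (log2 fold change 0.55, SE 0.179, edgeR adjusted p = 0.131), as did the aminopeptidase gene Enpep (0.22, SE 0.104, edgeR adjusted p = 0.32), each with 6 of 7 mutators above all controls. Cspg4 was lower, at -0.17 (SE 0.070, edgeR adjusted p = 0.243), with 5 of 7 mutators below all controls. Of 16 smooth muscle genes, 14 were tested and 0 called by edgeR or DESeq2, with 1 at an unadjusted p-value under 0.05 and a median log2 fold change of -0.03. The lowest p-value was that of Casq2, a calcium-binding protein of muscle stores, with a log2 fold change of 0.45 (SE 0.14, edgeR adjusted p = 0.121). Its groups did not overlap, with 2.10 to 2.58 CPM in controls and 2.69 to 4.31 CPM in mutators.

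Of 5 other PDGF ligands and receptors, 1 was called higher and 0 lower, with 3 at an unadjusted p-value under 0.05. The log2 fold changes of 2 were positive and those of 3 negative. Pdgfd, a ligand of the receptor that Pdgfrb encodes, had 4.77, 5.04, 4.599 and 4.80 CPM in control mice 205, 237, 239 and 246. In mutators it ran from 5.45 through a median of 7.79 to 8.83 CPM, so every mutator lay above every control. Its log2 fold change was 0.63 (SE 0.116, edgeR adjusted p = 0.0087), and the number called in the list was 1 under all 15 alternatives. Pdgfb, the ligand that endothelial cells release, was not called, with 23.7 ± 1.41 CPM (SD, n = 4) in controls and 21.8 ± 0.88 (SD, n = 7) in mutators. Its log2 fold change was -0.12 (SE 0.055, edgeR adjusted p = 0.296), with 6 of 7 mutators below all controls. Of 12 other Notch receptors, ligands and targets, 0 were called by edgeR or DESeq2 and 1 had an unadjusted p-value under 0.05, with Notch4 having the lowest p-value (log2 fold change 0.23, edgeR adjusted p = 0.274).

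Among other inwardly rectifying potassium channel genes, 11 of 13 were tested and 0 called by edgeR, with 3 at an unadjusted p-value under 0.05. The median log2 fold change was -0.07. Kcnj5, a subunit of G protein-gated channels, had a log2 fold change of 0.94 (SE 0.259, edgeR adjusted p = 0.0917) and was called by DESeq2. Its groups did not overlap, with 0.83 to 2.12 CPM in controls and 2.24 to 4.14 CPM in mutators. Of 8 other transporters of the Abcc family, 0 were called by edgeR or DESeq2, 0 had an unadjusted p-value under 0.05, and the lowest p-value was that of Abcc1 (log2 fold change -0.11, edgeR adjusted p = 0.377).

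**Figure D4:**
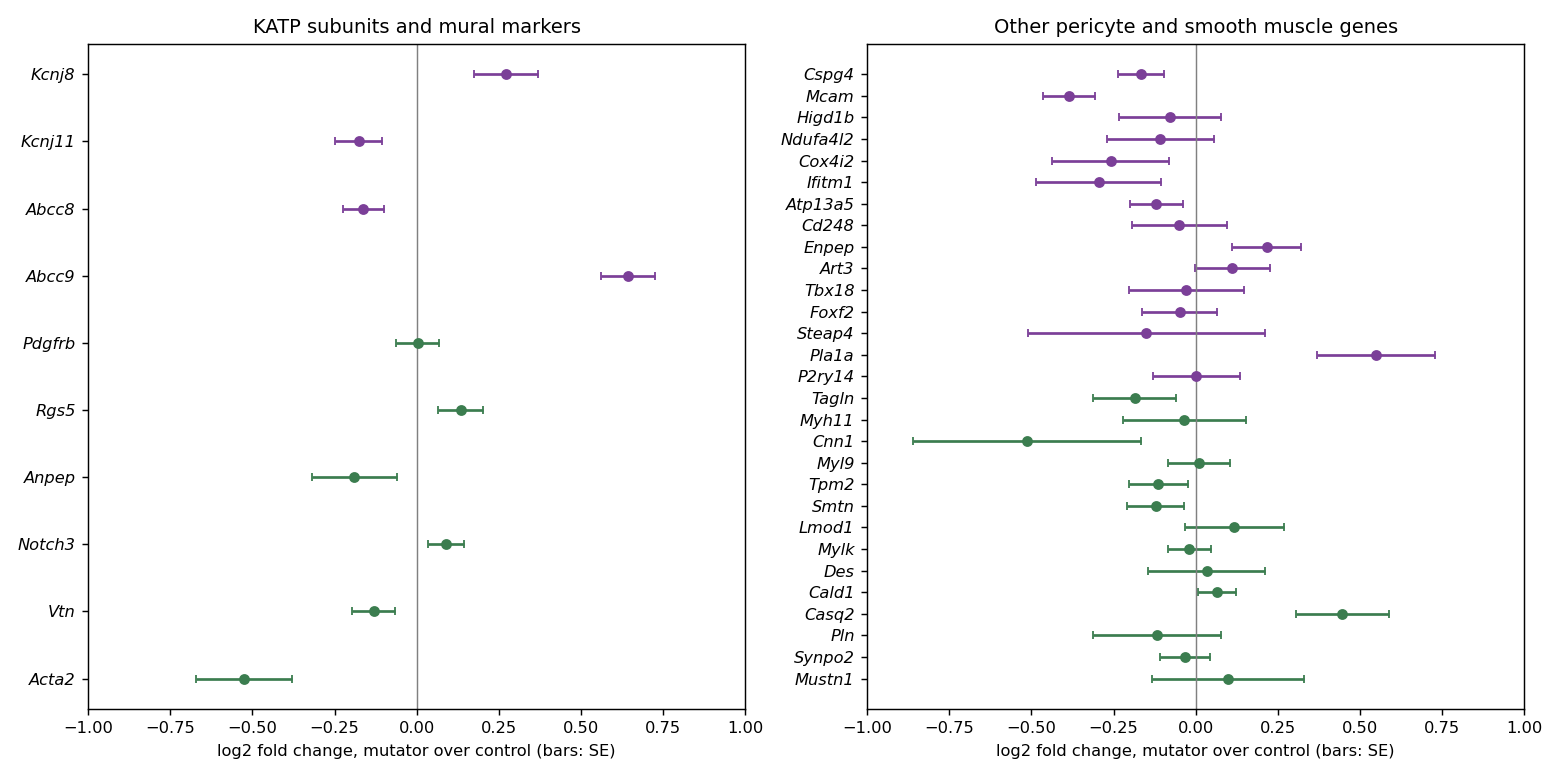
Log2 fold change of mutator over control with its standard error, for the 10 genes (left: KATP subunits purple, mural markers green) and for the tested genes of the other pericyte (purple) and smooth muscle (green) lists (right). Abcc9 at 0.64 and Acta2 at -0.53 stand furthest from 0 on the left, and Mcam at -0.39 is the one gene called on the right.

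Markers of other cell types were counted as a measure of tissue composition, and the part of composition in the values above was not tested. Of 20 endothelial genes, 0 were called higher and 1 lower, namely Itm2a (log2 fold change -0.38, edgeR adjusted p = 0.0375), a call lost without control mice 237, 239 or 246 or without mutator mice 240, 248 or 249. The log2 fold changes of 12 of the 20 were positive and those of 8 negative. Kdr, a VEGF receptor, had 11.9 ± 1.56 CPM (SD, n = 4) in controls and 21.4 ± 5.36 (SD, n = 7) in mutators, without overlap (log2 fold change 0.84, edgeR adjusted p = 0.0705). Flt1, another VEGF receptor, was at 0.36 (edgeR adjusted p = 0.0615) and the lipid transporter gene Mfsd2a at 0.45 (edgeR adjusted p = 0.171), each with 6 of 7 mutators above all controls. Among the 8 negative genes, Slco1c1 was at -0.27 (edgeR adjusted p = 0.0737), with 6 of 7 mutators below all controls. Tie1 was at -0.29 (edgeR adjusted p = 0.143), with 5 of 7 mutators below all controls. None was called by edgeR among fibroblast (10), neuron (7), astrocyte (6), oligodendrocyte (6), microglia (6), blood (5) or choroid plexus (5) genes. None of these lists held a gene at 0 in all mice. In the same order of lists, the lowest p-values were those of Ogn (log2 fold change 0.28), Slc17a7 (-0.21), Slc1a2 (-0.13), Mag (-0.31), Cx3cr1 (-0.20), Alas2 (1.02) and Clic6 (0.36). Their edgeR adjusted p-values lay between 0.0558 (Mag) and 0.334 (Alas2). Genes with an unadjusted p-value under 0.05 numbered 2 fibroblast, 1 neuron, 2 astrocyte, 3 oligodendrocyte, 4 microglia, 0 blood and 2 choroid plexus genes, and 8 endothelial ones. Over all genes, 2834 of the 17983 tested were under 0.05. DESeq2 called 2 endothelial genes higher and 2 lower, 1 astrocyte and 1 oligodendrocyte gene lower, and 1 choroid plexus gene higher. The median log2 fold changes of these lists were 0.03 for endothelial, 0.10 for fibroblast, -0.03 for neuron, -0.05 for astrocyte, -0.21 for oligodendrocyte, -0.19 for microglia, 0.64 for blood and 0.14 for choroid plexus genes. The summed endothelial level was between 544 and 649 CPM in controls and between 573 and 689 CPM in mutators, and the summed blood level was between 57.5 and 198 and between 89.7 and 256.9 CPM. The cerebellar markers Gabra6, Cbln3 and Fat2 summed to between 0.654 and 0.875 CPM in controls and between 0.775 and 8.69 CPM in mutators. Of these, 2 were tested and 0 called by edgeR, 1 had an unadjusted p-value under 0.05, and DESeq2 called 1 higher.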

How the data were processed

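Poly(A)+ RNA of 11 cerebra was sequenced as paired ends, not stated to be stranded. The authors aligned reads to mm9 with TopHat2 2.0.6 and Bowtie2 2.0.2.0 on an Ensembl annotation and counted them with HTSeq 0.5.3p9 (versions per the submitters' processing notes). They deposited counts per gene for 11 mice and counts per flattened exon bin for 10, neither normalized. The deposited read table, of other values (listed and aligned reads), served only to compare depths. The authors' comparison tables hold fold changes and p-values and were not used. Per-sample columns not used: 0. Reads in no exon bin, between 20.6% and 23.4% of the bin file counts, were left out.

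The gene test was edgeR's (version 4.0.16, R 4.3.3) quasi-likelihood F test, fitted robustly after filterByExpr and TMM scaling (Benjamini-Hochberg adjustment over 17983 genes, threshold 0.05). Standard errors are the log2 fold change over the root of F. Log2 CPM used a prior count of 2. Exon bins were tested with diffSpliceDGE, whose coefficients were divided by the natural log of 2. Alternatives were DESeq2 1.42.0, RLE factors, no low-count filter, a minimum mean count of 10, limma 3.58.1 and leaving out each mouse. DESeq and DEXSeq, the tools of the study, were not used. Exon bins were placed with the GENCODE annotation of Ensembl release 65, a later release than that of the authors. It gave all 10 genes as many bins as the files hold, and bins were matched by that number and their order alone, on which the last exon bins of Abcc9 rest. The code was tested on simulated data.

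Mice were grouped by genotype label. Replicates are separate mice. The genes and lists were chosen with earlier results of these data known. Named are the 10 genes, up to 3 called genes per list (otherwise the lowest p-value), the 3 genes most like each subunit, and the last exons of Abcc9. Pdgfb, Cbln3, Pla1a, Enpep, Cspg4, Kdr, Flt1, Mfsd2a, Slco1c1 and Tie1 were named after their values were seen. A check of markers of the labelled tissue is not reported here.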

Additional observations from a re-analysis of the deposited data

Results flagged for a closer look

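Among 39 groups of mice checked for a single distant value, over the levels and ratios of the 10 genes, the last exon share and the library depth, 1 held a mouse far from the rest by Dixon's 95% criterion, which chance alone meets in about 1 group in 20. In mutator mouse 248, gene counts came to 3.00 per aligned read listed, whereas the other mutators lay between 0.744 and 0.772, and its gap to them took 0.988 of the range of the group. The aligned reads listed for this mouse are fewer than its gene counts, so the listed total may be wrong. Without this mouse the log2 fold change of Abcc9 was 0.62 and that of Acta2 was -0.57.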

How the results depend on the processing

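The number of the 10 genes called, a description since they were chosen on this comparison, was 2 with DESeq2 (Abcc9 and Acta2) against 1, and between 1 and 2 when a mouse was left out. Over all genes, 615 were called with DESeq2 and 346 with no filter, against 223, and between 50 and 412 when a mouse was left out. The lowest, 50, came without the WT/D257A mouse, so it is also the count with WT/WT controls only. Limma's diffSplice called 25 exon bins against 49, and leaving out a mouse gave between 5 and 186, with 0 bins in the 10 genes each time. The difference in last exon share lay between -0.50 and 0.21 percentage points when a mouse was left out, and turned positive without mutator mouse 217 (0.02) and without control mouse 246 (0.21). Between 0 and 1 pairs of genes correlated when a mutator was left out. The correlation of Acta2 with Abcc9 lay between -0.42 and 0.078 when a mutator was left out, turning positive without mouse 240 (0.04) or 249 (0.078). The cause of these changes was not tested. The 0 to 3 counts of the SUR2A-type exon and the 28249345 gene counts of the smallest library limit what could be seen. No paired analysis was possible because the labels give no replicate numbers that join control and mutator mice.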

Other observations

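The cerebellar markers stood highest in mutator mouse 217. Cbln3, a secreted protein of cerebellar granule cells, was at 4.54 CPM there and at 2.48 CPM in mutator mouse 211, whereas the 4 controls lay between 0.54 and 0.63 CPM. Fat2, a granule cell cadherin, was at 2.70 CPM in mouse 217 and at most 0.25 CPM in the controls. For Cbln3 and for Fat2 alike, 5 of 7 mutators lay above all controls. Without mutator mouse 217, the log2 fold change of Abcc9 was 0.66 and that of Kcnj8 was 0.25.

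Among the 10 genes, the WT/D257A mouse lay above all 3 WT/WT mice in 6 and within their range in 4, and lay below them in none.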
